A study of Homo sapiens with 4 samples.

Results

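The interferon, JAK-STAT and MHC class I genes are 49 listed genes, of the 57768 gene entries in the data, that carry the signal of interferons and related cytokines from receptor to nucleus, answer it, or load peptides for display at the cell surface. They were chosen by name and matched to gene identifiers by symbol. All 49 were matched, and 41 of them passed the filter for the test. They fall into 7 roles, with 4 interferon receptors, 3 JAK kinases, 5 STAT factors, 3 SOCS inhibitors, 5 IRF factors, 19 interferon-stimulated genes and 10 antigen presentation genes.

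Interferons bind receptor pairs at the cell surface. JAK kinases attached to the receptors then phosphorylate STAT factors. A complex that holds STAT2 and IRF9 binds interferon-stimulated response elements (ISREs) in front of antiviral genes, and STAT dimers bind a different element called GAS. SOCS proteins are induced by the same signal and shut it off. MHC class I molecules, made of a heavy chain and B2M, carry peptides that the proteasome cuts and the TAP transporter brings into the endoplasmic reticulum. Liver cells also use JAK1 and STAT3 for the acute-phase response to interleukin 6, in which C/EBPβ takes part.

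The data are labelled as RNA-seq of 2 WT libraries and 2 C/EBPβ enh-/- libraries, although the extraction text in the labels speaks of antibody isolation of histone-bound DNA, which is a ChIP step. In the latter, the enhancer of CEBPB had been deleted on both alleles by CRISPR/Cas9, and no interferon or other cytokine is named as a treatment of either genotype. The labels call all 4 libraries HepG2, an established human liver cancer cell line. They do not say whether the C/EBPβ enh-/- libraries came from 1 clone or several, nor whether the libraries of a genotype were separate cultures, so p-values measure only the spread between these libraries, which may be technical.

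The deposited values are FPKM, fragments scaled by transcript length and by library size. Approximate depth, judged from how far apart low values lie, was 40000000 and 44500000 fragments for WT cells and 21700000 and 48700000 for C/EBPβ enh-/- cells. All 20 hepatocyte markers examined, ALB, AFP and HNF4A among them, were below an FPKM of 1 in every library, with sums of 0.646 to 1.13, so the liver label was not borne out by these genes. Leukocyte markers summed to 3.47 and 4.28 in WT and 8.78 and 2.41 in C/EBPβ enh-/- libraries, with the pan-leukocyte gene PTPRC and 5 others of 7 below 1 throughout. Fibroblast markers summed to 54.2 and 50.2 in WT and 57.6 and 73.3 in C/EBPβ enh-/- libraries, most of it COL3A1 and COL1A1, while COL1A2 was at most 0.0044 and LUM at most 0.060. They did not move together, since COL3A1 was higher without the enhancer (33.3 and 31.9 against 45.8 and 55.7), and PDGFRB (4.15 and 5.59 against 1.52 and 2.27) and DCN (1.33 and 1.24 against 0.110 and 0.392) were lower. The part of these cells in the values below was not tested. CEBPB, the gene under the deleted enhancer, had an FPKM of 30.6 and 19.2 in WT and 12.4 and 11.8 in C/EBPβ enh-/- libraries (log2 fold change -0.94, SE 0.27, adjusted p = 0.125 from limma), which missed the threshold.

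Of the 41 tested genes, 1 rose and 1 fell in C/EBPβ enh-/- cells at an adjusted p under 0.05 from limma. OAS1 rose and BST2 fell, and OAS1 passed the filter only through its C/EBPβ enh-/- level, which fixed its direction but not its size. Among all 12491 tested genes the same test called 0.248% higher and 1.21% lower, so with 41 genes each count is that of a single gene. At an unadjusted p under 0.05, 6 members lay higher and 10 lower, these calls included, where 3.86% and 16.9% of all tested genes did, and for OAS1, OAS3 and IFI27 among the 6 the filter had fixed the direction. This balance depended on scaling, with 8 members higher and 7 lower when library totals were equalised without their highest genes (1283 and 1138 of all tested genes), and 8 and 6 when libraries were centred on the median (1142 and 1263). It also changed with the library that was left out. The values of both genotypes did not overlap for 25 of the 41, with 9 higher (22%) and 16 lower (39%) in C/EBPβ enh-/- libraries, beside 15.1% and 37.5% of all tested genes. The downward share was thus close to the background, and 4 of the 9 higher genes passed the filter only through their C/EBPβ enh-/- level, as IRF2 among the 16 lower did through its WT level. The median log2 fold change was -0.21 over the members and -0.14 over all tested genes, and 26 of the 41 members lay below 0, beside 62.6% of all tested genes. The members' median was 0.014 and -0.031 under those same 2 scalings, so its sign was not settled. In bulk RNA, fewer cells of a type and less RNA per cell cannot be told apart.

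By role, the median log2 fold change was -0.13 for receptors, 0.11 for JAK kinases, -0.64 for STAT factors, -0.65 for SOCS inhibitors, -0.23 for IRF factors and -0.47 for antigen presentation genes. Over the 3 rescalings the receptor median ran from -0.15 to 0.08 and the IRF median from -0.24 to -0.03. The JAK median ran from 0.10 to 0.34 and the STAT median from -0.65 to -0.44. The SOCS median ran from -0.66 to -0.45 and that of antigen presentation from -0.48 to -0.27. Without IRF2, whose direction the filter had fixed, the IRF median was -0.12. That is the value of IRF1, which was 0.052 and 0.055 under 2 of the rescalings. The median was 0.30 over the 16 tested interferon-stimulated genes, but -0.09 over the 12 that passed the filter in both genotypes. IFIT5 and IFITM1, the middle genes of those 12, were 0.14 and 0.096 when totals were equalised without the highest genes. When centred on the median they were 0.10 and 0.056, so the sign of the median over the 12 was not settled. The other 4 passed only through C/EBPβ enh-/- cells, so their positive sign was fixed. No test compared the roles with each other.

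**Figure D1:**
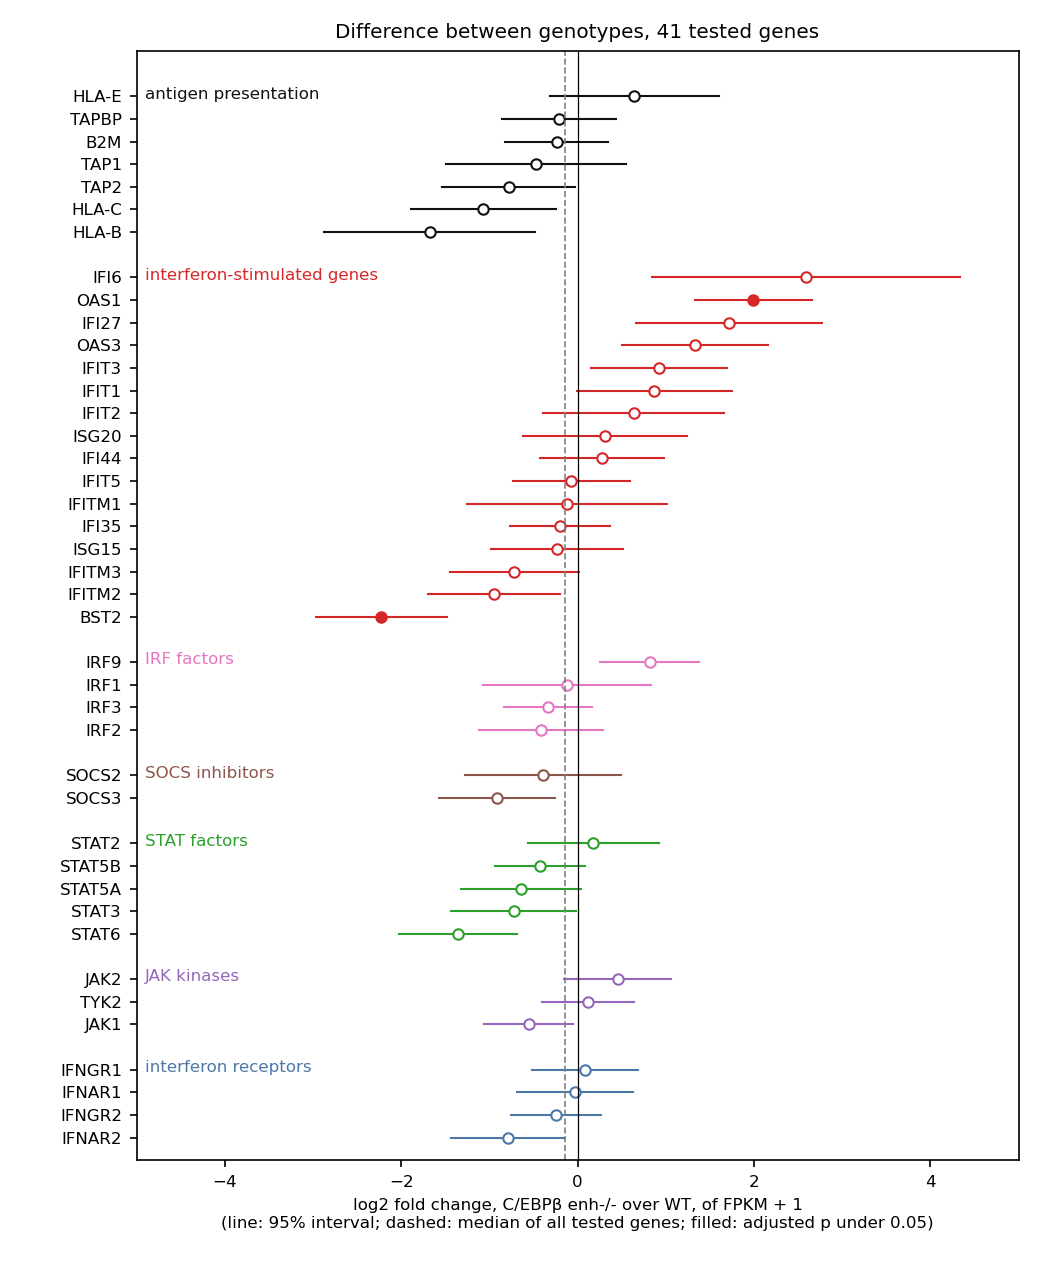
Log2 fold change of FPKM + 1 (x axis, C/EBPβ enh-/- over WT) with its 95% interval for each of the 41 tested genes, grouped by role, with filled points for an adjusted p under 0.05 and a dashed line at the median of all tested genes. Only OAS1 at 1.995 and BST2 at -2.23 are filled, and the place of OAS1, OAS3, IFI27 and IFI44 right of 0 was fixed by the filter.

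The plot of fold changes by role shows the interferon-stimulated genes spread over both sides of 0, from -2.23 to 2.59, while 6 of 7 antigen presentation genes and 4 of 5 STAT factors lie below it, TAPBP only until the highest genes are left out of the library totals. Both genes that passed the test, OAS1 and BST2, belong to the interferon-stimulated genes.

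OAS1 (ENSG00000089127.8, chr12:113343661-113371024 on GRCh37, plus strand) encodes an enzyme that senses double-stranded RNA and makes the 2′-5′ oligoadenylates that switch on RNase L. WT libraries 1 and 2 had an OAS1 FPKM of 1.01 and 0.442, against 6.38 and 5.24 in libraries 1 and 2 of C/EBPβ enh-/- cells. Both C/EBPβ enh-/- values were well above both WT values. The means were 0.726 ± 0.401 (SD, n = 2) and 5.81 ± 0.803 (SD, n = 2), 8.004 times higher without the enhancer. The log2 fold change of FPKM + 1, which understates the change of low genes, was 1.995 (SE 0.28, 95% interval 1.33 to 2.66, adjusted p = 0.0279 from limma), which is 2.14 above the median over all genes tested. OAS1 passed the filter only through its C/EBPβ enh-/- level, and its adjusted p was 0.0944 to 0.22 when any 1 library was left out and 0.251 when no filter was used.

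OAS2 and OAS3, which encode larger enzymes of the same family, lie next to OAS1 in a run of 106 kb (chr12:113343661-113449528, GRCh37) in the order OAS1, OAS3, OAS2. OAS3 had an FPKM of 0.921 and 0.456 in WT and 4.51 and 2.22 in C/EBPβ enh-/- libraries, 4.88 times higher on average (log2 fold change 1.33, SE 0.35, adjusted p = 0.107 from limma). OAS2 was below the filter, with 0.153 and 0.110 in WT and 0.583 and 0.413 in C/EBPβ enh-/- libraries. The genotypes did not overlap for any of the 3 genes, but the filter had fixed the direction of OAS1 and OAS3, and OAS2 was not tested, so their shared direction is a description only. The 8 other tested genes within 500 kb of OAS1 had log2 fold changes from -1.29 to -0.04, none called.

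The sequences in front of the start sites of OAS1 and OAS3 are shown because these neighbours carry the elements through which interferon acts. Each run is the 250 bases before the RefSeq start, 5′ to 3′ on the strand of the gene, placed on GRCh37 by 1 exact match, and capitals mark matches to the ISRE core (GAAA, any 2 bases, GAAA), to the same core with a shorter gap (GAAANGAAA), to GAS (TTCNNNGAA) and to C/EBP (TTGCNNAA), searched on both strands, with adjoining or overlapping matches run together. The OAS1 run is chr12:113344517-113344766 and the OAS3 run chr12:113376029-113376278, both on the plus strand. The RefSeq start can lie inside the gene span given in the text, as for OAS1, IFI27 and STAT6. A run therefore need not precede the outermost annotated start.
OAS1: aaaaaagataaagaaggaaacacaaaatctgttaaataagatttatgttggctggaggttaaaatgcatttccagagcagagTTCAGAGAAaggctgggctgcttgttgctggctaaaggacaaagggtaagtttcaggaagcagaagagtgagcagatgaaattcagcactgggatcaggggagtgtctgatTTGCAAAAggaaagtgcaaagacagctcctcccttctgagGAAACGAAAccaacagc
OAS3: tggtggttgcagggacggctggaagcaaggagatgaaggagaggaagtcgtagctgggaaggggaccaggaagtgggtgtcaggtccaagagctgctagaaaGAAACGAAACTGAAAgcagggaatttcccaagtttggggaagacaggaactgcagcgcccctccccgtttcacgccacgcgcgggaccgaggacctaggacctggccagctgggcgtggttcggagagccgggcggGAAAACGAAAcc
OAS1 held no match to the ISRE core but 1 to the form with the shorter gap, GAAACGAAA, at -17 from the start, together with 1 GAS match and 1 C/EBP match. OAS3 held 2 ISRE core matches and 1 of the shorter form. A match is a string of letters and does not show binding.

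IFI6 and IFI27 encode small hydrophobic proteins induced by type I interferon. IFI6 (ENSG00000126709.10, chr1:27992575-27998723, minus strand) had an FPKM of 7.45 and 6.17 in WT cells, against 115 in C/EBPβ enh-/- library 1 and 18.0 in library 2. Both lay above both WT values, but C/EBPβ enh-/- library 1 was far above library 2. The means were 6.81 ± 0.901 and 66.3 ± 68.2 (SD, n = 2 each), and the log2 fold change of 2.59 (SE 0.74, 95% interval 0.84 to 4.34) missed the threshold (adjusted p = 0.123 from limma). Without C/EBPβ enh-/- library 2 it was 3.89 (adjusted p = 0.035 from limma), and without library 1 of that genotype it was 1.29.

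IFI27 (ENSG00000165949.8, chr14:94571182-94583032, plus strand) had the same order of libraries, at 0.966 and 0.901 in WT and 9.25 and 2.93 in C/EBPβ enh-/- libraries. Its mean was 6.52 times higher without the enhancer (log2 fold change 1.71, SE 0.44, adjusted p = 0.106 from limma), and the log2 fold change was 1.02 without C/EBPβ enh-/- library 1. Like OAS1, OAS3 and IFI44, it passed the filter only through the C/EBPβ enh-/- level. All 4 of these genes therefore had to be the higher in that genotype, and their direction is not counted as a result.

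The promoters of IFI6 (chr1:27998704-27998953, minus strand) and IFI27 (chr14:94576832-94577081, plus strand) are shown for the number of ISRE cores they hold, with capitals as above.
IFI6: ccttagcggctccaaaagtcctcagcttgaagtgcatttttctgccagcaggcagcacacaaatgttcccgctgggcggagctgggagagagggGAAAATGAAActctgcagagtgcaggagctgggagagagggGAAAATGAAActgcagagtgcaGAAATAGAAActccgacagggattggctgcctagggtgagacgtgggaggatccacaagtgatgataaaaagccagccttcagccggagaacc
IFI27: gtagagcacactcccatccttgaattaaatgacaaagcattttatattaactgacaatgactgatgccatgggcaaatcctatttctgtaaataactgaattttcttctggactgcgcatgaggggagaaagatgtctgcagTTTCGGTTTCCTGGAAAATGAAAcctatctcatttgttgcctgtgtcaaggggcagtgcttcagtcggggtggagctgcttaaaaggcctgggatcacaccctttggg
IFI6 held 3 ISRE core matches, of which GAAAATGAAA occurs in 2, and IFI27 held 2 together with 1 GAS match. All 5 ISRE cores lay before the start.

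The IFIT proteins bind viral RNA that lacks the marks of host messages. IFIT2, IFIT3, IFIT1 and IFIT5 lie in that order over 138 kb of chromosome 10 and did not all lie on one side of 0, although IFIT5 turned positive under 2 of the 3 rescalings of the libraries. IFIT3 had an FPKM of 1.67 and 0.947 in WT and 4.41 and 2.45 in C/EBPβ enh-/- libraries (log2 fold change 0.92, SE 0.32, adjusted p = 0.177 from limma). IFIT1 had 5.99 and 2.48 against 9.65 and 6.66, which did not overlap either. IFIT2, at 2.43 and 0.535 against 3.40 and 1.89, and IFIT5, at 11.2 and 7.50 against 10.4 and 7.30, overlapped between genotypes. IFIT1, IFIT2 and IFIT3 overlap the annotated span of LIPA on the opposite strand (mean FPKM 19.3), and it is not stated whether strand was used, so their reads could be mixed.

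BST2 (ENSG00000130303.8, chr19:17513748-17516439, minus strand) encodes tetherin, a membrane protein that holds budding viruses at the cell surface. It had the highest FPKM of the interferon-stimulated genes in WT cells, 145 and 258, and stood at 45.0 and 36.4 in C/EBPβ enh-/- libraries. The groups were far apart, with means of 201.3 ± 80.2 and 40.7 ± 6.05 (SD, n = 2 each), 4.94-fold lower without the enhancer. The log2 fold change was -2.23 (SE 0.31, 95% interval -2.97 to -1.48, adjusted p = 0.0279 from limma), and -2.09 once that median is subtracted. Leaving out any 1 library gave -2.64 to -1.81 with an adjusted p of 0.0689 to 0.187, and no filter gave 0.266, so the call did not hold in these fits. The 20 other tested genes within 500 kb had a median of -0.24, none called, with none below -0.69.

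The BST2 promoter (chr19:17516440-17516689, minus strand) is shown because it holds the same elements as those of genes that lay on the other side of 0, with capitals as above.
BST2: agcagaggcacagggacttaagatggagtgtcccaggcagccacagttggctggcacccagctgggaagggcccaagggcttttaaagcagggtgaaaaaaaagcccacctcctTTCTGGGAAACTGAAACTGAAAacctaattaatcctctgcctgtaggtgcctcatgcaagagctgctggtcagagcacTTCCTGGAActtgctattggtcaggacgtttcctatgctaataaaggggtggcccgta
It held 2 overlapping ISRE cores, in GAAACTGAAACTGAAA, and 2 GAS matches. The ISRE core in a promoter thus went with the highest and the lowest log2 fold change of the interferon-stimulated genes, IFI6 and BST2.

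The IFITM genes, whose products sit in membranes and hinder virus entry, lie over 25.8 kb of chromosome 11. IFITM2 stood at 33.9 and 56.1 in WT and 26.6 and 18.3 in C/EBPβ enh-/- libraries (log2 fold change -0.95, SE 0.31, adjusted p = 0.160 from limma). IFITM3 stood at 70.4 and 127 against 55.9 and 58.7, lower in both. IFITM1, at 12.95 and 18.3 against 24.6 and 7.90, overlapped, and its sign turned under other scalings of the libraries. The 3 genes are near-copies, so counting could split reads between them and their values are uncertain.

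The remaining interferon-stimulated genes had no call. ISG15, a ubiquitin-like modifier, had an FPKM of 34.2 and 20.2 in WT and 26.6 and 18.7 in C/EBPβ enh-/- libraries. ISG20, a nuclease that degrades RNA, had 9.01 and 10.9 against 19.6 and 7.98. ISG15 and ISG20 both overlapped, and so did IFI35. IFI44 was at 0.843 and 0.891 against 1.63 and 0.945. MX1 and MX2, GTPases that trap viral nucleocapsids, were below the filter, with MX1 from 0.273 to 0.678 and MX2 at most 0.152 in any library. Of the 12 genes of this role that passed the filter in both genotypes, 3 were higher and 3 lower without overlap, where 15.1% and 37.5% of all tested genes were.

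**Figure D2:**
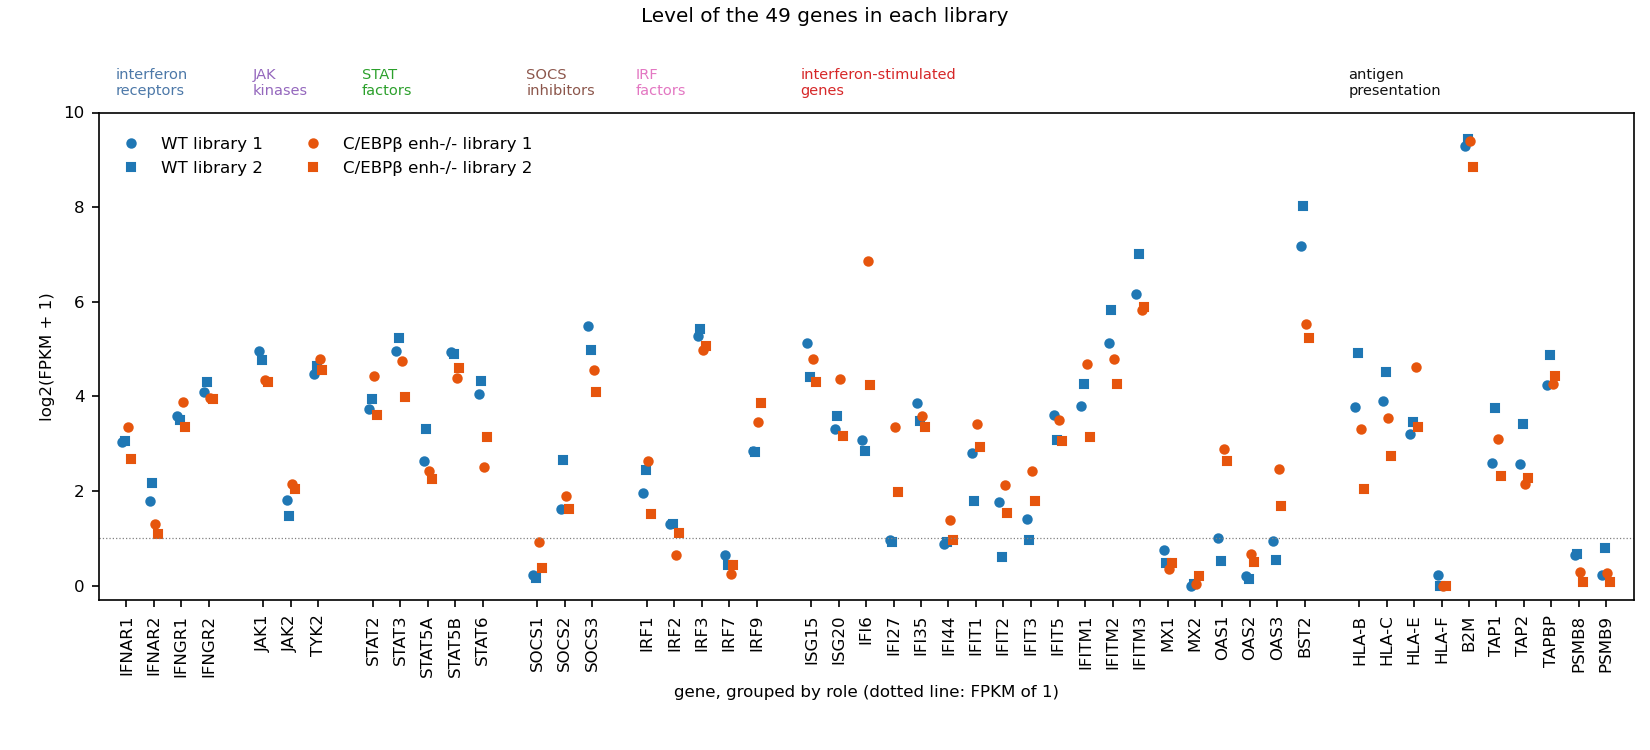
Level of each of the 49 genes in each library as log2(FPKM + 1) (y axis), grouped by role along the x axis, with blue for WT and orange for C/EBPβ enh-/- libraries, circles for library 1 and squares for library 2, and a dotted line at an FPKM of 1. B2M is the highest gene in every library, from 462 to 696, and 8 genes lie too low for the test.

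The plot of levels shows how much of the pathway was at hand in these cells. All 4 receptors, all 3 kinases and all 5 STAT factors passed the filter, while SOCS1, IRF7, MX1, MX2, OAS2, HLA-F, PSMB8 and PSMB9 did not.

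Among the receptors, IFNAR1 and IFNAR2 bind type I interferon and IFNGR1 and IFNGR2 bind interferon gamma. IFNAR2 had an FPKM of 2.49 and 3.52 in WT and 1.48 and 1.13 in C/EBPβ enh-/- libraries (log2 fold change -0.79, SE 0.27, 95% interval -1.44 to -0.14, adjusted p = 0.172 from limma). Its groups did not overlap, but the difference missed the threshold. IFNAR1, at 7.22 and 7.35 against 9.25 and 5.45, and IFNGR1, at 10.9 and 10.4 against 13.9 and 9.29, overlapped. IFNGR2 stood at 16.1 and 18.7 against 14.7 and 14.3, and its gene shares bases with that of TMEM50B on the opposite strand. IFNAR2, IFNAR1 and IFNGR2 lie within 274 kb of chromosome 21 together with IL10RB, a subunit of the interferon lambda receptor, which stood at 12.6 and 8.85 in WT and 2.01 and 4.27 in C/EBPβ enh-/- libraries (log2 fold change -1.54, SE 0.33, adjusted p = 0.0743 from limma).

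The kinases JAK1, JAK2 and TYK2 start the signal inside the cell. JAK1, which serves all interferon receptors, had an FPKM of 30.3 and 26.4 in WT and 19.3 and 18.7 in C/EBPβ enh-/- libraries (log2 fold change -0.55, SE 0.21, adjusted p = 0.208 from limma). JAK2 lay the other way, at 2.54 and 1.78 against 3.46 and 3.14 (log2 fold change 0.46, SE 0.26, adjusted p = 0.353 from limma). TYK2 overlapped, at 21.4 and 24.0 against 26.7 and 22.7. None of the 3 passed the test.

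STAT6, which carries the interleukin 4 and 13 signal, was the STAT factor furthest from 0. STAT6 (ENSG00000166888.6, chr12:57489191-57525922, minus strand) had an FPKM of 15.5 and 19.2 in WT and 4.73 and 7.88 in C/EBPβ enh-/- libraries. The means of 17.4 ± 2.59 and 6.31 ± 2.23 (SD, n = 2 each) gave a log2 fold change of -1.36 (SE 0.28, 95% interval -2.02 to -0.69), which missed the threshold at an adjusted p of 0.071 from limma. Its gene overlaps those of LRP1 and NAB2 on the other strand.

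The STAT6 promoter (chr12:57504073-57504322, minus strand) is shown because of the 39 members with a promoter in the RefSeq table, STAT6 and OAS1 alone held the C/EBP letters.
STAT6: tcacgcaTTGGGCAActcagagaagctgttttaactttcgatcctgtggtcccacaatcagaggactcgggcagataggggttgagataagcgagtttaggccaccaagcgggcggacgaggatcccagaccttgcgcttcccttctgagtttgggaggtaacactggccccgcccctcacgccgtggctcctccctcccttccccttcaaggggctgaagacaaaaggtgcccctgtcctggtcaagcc
Its 1 match, TTGGGCAA, is TTGCNNAA read on the other strand and lay at -243 from the RefSeq start. The printed run lies inside the STAT6 span given above. Across all 27305 promoters, 10.6% held these letters, and 5.13% of those 39 members did.

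STAT3, the STAT of the interleukin 6 signal, had an FPKM of 30.0 and 36.5 in WT and 25.8 and 14.9 in C/EBPβ enh-/- libraries (log2 fold change -0.72, SE 0.30, adjusted p = 0.232 from limma). STAT5A and STAT5B, which act below growth hormone and other cytokines, stood at 5.24 and 8.95 against 4.35 and 3.79, and at 29.7 and 28.7 against 19.9 and 23.3. The genotypes did not overlap for STAT3, STAT5A, STAT5B and STAT6, all lower without the enhancer, and 37.5% of all tested genes were lower in this way. STAT2, the partner of IRF9, overlapped, at 12.3 and 14.4 in WT against 20.7 and 11.1. STAT5A and STAT5B overlap on opposite strands, so their reads could be mixed.

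The SOCS inhibitors block JAK kinases. SOCS3, which limits the STAT3 signal, had an FPKM of 44.01 and 30.8 in WT and 22.7 and 16.0 in C/EBPβ enh-/- libraries (log2 fold change -0.91, SE 0.28, 95% interval -1.58 to -0.25, adjusted p = 0.140 from limma), with no overlap. SOCS2 overlapped, at 2.10 and 5.34 against 2.74 and 2.07. SOCS1, the inhibitor of the interferon receptors, was below the filter at 0.175 and 0.128 against 0.912 and 0.297. Its gene overlaps that of RMI2 on the opposite strand (mean FPKM 13.6), so reads could be mixed.

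The IRF factors bind the ISRE. IRF9, the DNA-binding subunit of the type I interferon complex, had an FPKM of 6.24 and 6.08 in WT and 9.96 and 13.5 in C/EBPβ enh-/- libraries (log2 fold change 0.82, SE 0.24, 95% interval 0.26 to 1.38, adjusted p = 0.127 from limma). It was the only IRF factor higher in both C/EBPβ enh-/- libraries. IRF3, which turns on the interferon genes after infection, stood at 37.8 and 42.1 against 30.6 and 32.3, and IRF2 at 1.46 and 1.48 against 0.576 and 1.18. The gene of IRF3 shares bases with that of BCL2L12 on the opposite strand (mean FPKM 13.1), so reads could be mixed. IRF1 overlapped at 2.90 and 4.46 against 5.26 and 1.88, and IRF7 was below the filter in every library.

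Of the 7 tested antigen presentation genes, 6 lay below 0, where 62.6% of all tested genes did. HLA-B and HLA-C encode class I heavy chains. HLA-B had an FPKM of 12.8 and 29.1 in WT and 8.90 and 3.12 in C/EBPβ enh-/- libraries (log2 fold change -1.67, SE 0.50, 95% interval -2.87 to -0.48, adjusted p = 0.136 from limma). HLA-C had 13.9 and 22.0 against 10.7 and 5.65 (log2 fold change -1.07, SE 0.35, adjusted p = 0.156 from limma). Both were lower in both C/EBPβ enh-/- libraries, with a wide spread within each genotype. HLA-B and HLA-C are near-copies of each other and of other class I genes and vary between people, so reads could be split or lost and their values are uncertain.

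HLA-E, a class I gene read by natural killer cells, overlapped at 8.28 and 10.1 in WT and 23.5 and 9.27 in C/EBPβ enh-/- libraries. B2M, the light chain, overlapped at 622 and 696 against 675 and 462. HLA-F was listed at 0 in 3 libraries and at 0.167 in WT library 1. HLA-E and B2M thus differed between genotypes by less than the spread between libraries.

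TAP1 and TAP2 form the peptide transporter and TAPBP bridges it to class I. TAP2 stood at 4.94 and 9.63 in WT and 3.41 and 3.85 in C/EBPβ enh-/- libraries (log2 fold change -0.78, SE 0.32, adjusted p = 0.225 from limma). TAP1, at 5.07 and 12.5 against 7.53 and 4.03, and TAPBP, at 17.8 and 28.2 against 18.2 and 20.5, overlapped. The immunoproteasome subunits PSMB8 and PSMB9 were below the filter, with PSMB8 at 0.581 and 0.593 against 0.229 and 0.0636. Of the 7 tested genes of this role, 3 were lower without overlap (42.9%) and 0 higher, beside 37.5% and 15.1% of all tested genes, and PSMB8, which was not tested, was lower as well. The 83 other tested genes between HLA-F and TAPBP (chr6:29690552-33282061) had a median log2 fold change of 0.12, none called and the lowest at -0.90, above HLA-B and HLA-C.

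**Figure D3:**
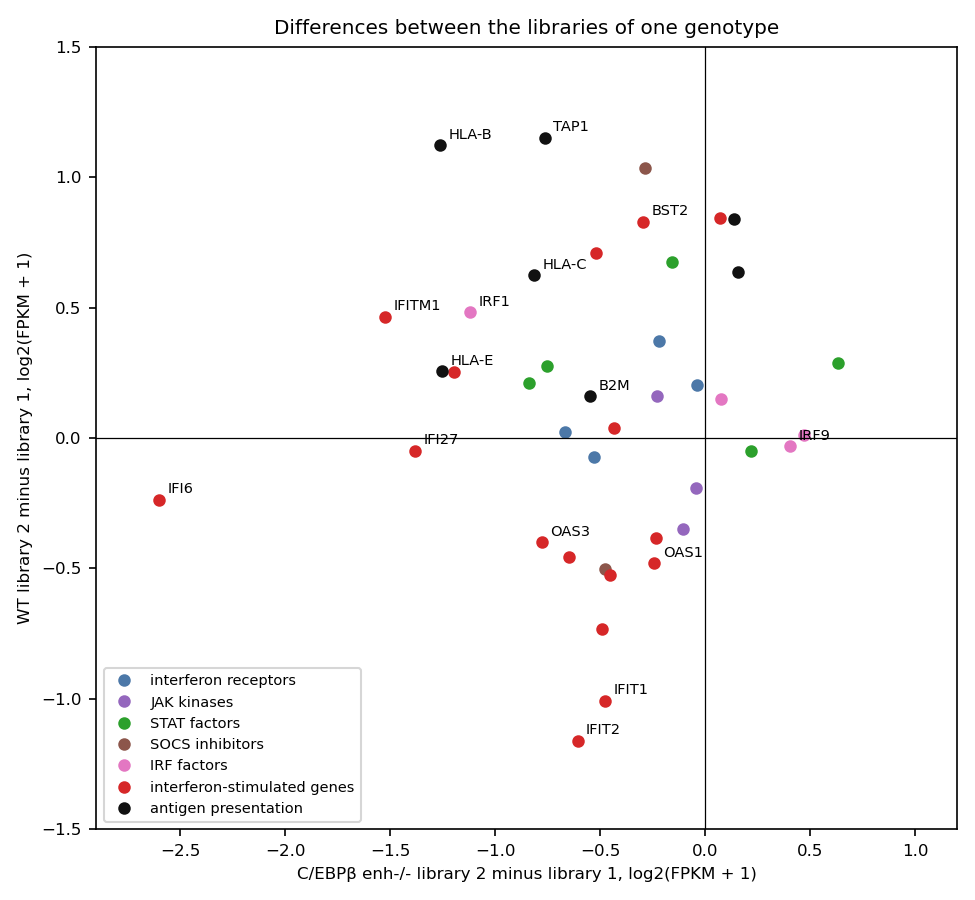
For each tested gene, library 2 minus library 1 of C/EBPβ enh-/- cells (x axis) and of WT cells (y axis), both in log2(FPKM + 1), coloured by role. Interferon-stimulated genes lie left of 0 on the x axis in 15 of 16 cases, and all 7 antigen presentation genes lie above 0 on the y axis.

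The plot of differences within a genotype shows that the members also moved between libraries of one genotype. C/EBPβ enh-/- library 1 was above library 2 for 33 of 41 members (80.5%) and for 15 of 16 interferon-stimulated genes (93.8%), where 58.9% of all tested genes were. WT library 2 was above WT library 1 for 7 of 7 antigen presentation genes, with a median difference of 0.64, where 50.8% of all tested genes were. C/EBPβ enh-/- library 1 had the lowest depth and held 35.1% of its FPKM in its 5 highest genes, against 18.8% to 27.4% in the other libraries, and the part of this in the values was not tested. For 24 of 41 members the difference between genotypes was smaller than the larger difference within a genotype (58.5%), as it was for 59.7% of all tested genes.

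**Figure D4:**
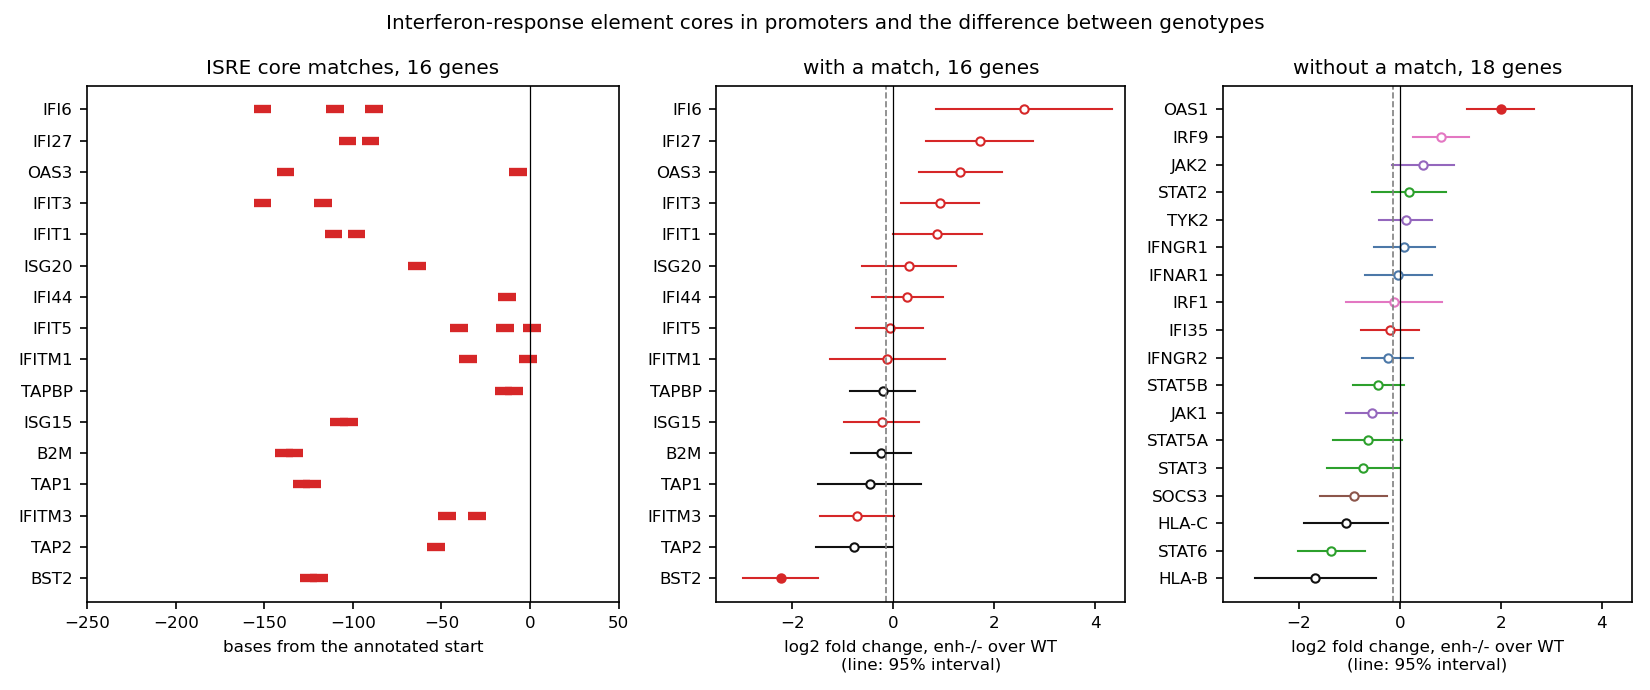
Left, position of ISRE core matches from 250 bases before to 50 after the annotated start (x axis, in bases) in the 16 tested members that hold one; middle and right, log2 fold change (x axis, C/EBPβ enh-/- over WT, with its 95% interval) of the 16 members with a match and the 18 without, filled for an adjusted p under 0.05. Members with a match range from BST2 at -2.23 to IFI6 at 2.59.

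Over the whole window of each promoter, 19 of the 39 members present in the RefSeq table (48.7%) held the ISRE core, against 3.65% of all 27305 promoters. The members were listed by name for their part in the interferon response. Such a share therefore describes the list and not the genotypes. The plot of matches and fold changes shows both sides of 0 in either set. Since the filter fixed the direction of OAS1, OAS3, IFI27 and IFI44, the sets were not compared by their medians. GAS letters were found in 7 members (17.9%) and in 7.88% of all promoters. The shorter ISRE form was searched only after the OAS1 promoter had been read, so its share among the members is not compared. It occurred in 3.22% of all promoters.

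A wider list of 96 pathway genes, of which 94 were matched and 52 tested, had 1 gene that passed the test. LGALS3BP, a secreted galectin-binding glycoprotein induced by interferon, fell from an FPKM of 32.7 and 27.3 in WT to 1.501 and 1.19 in C/EBPβ enh-/- libraries (log2 fold change -3.72, SE 0.23, adjusted p = 0.0017 from limma). Leaving out any 1 library gave an adjusted p of 0.0313 to 0.0629, under the threshold without either C/EBPβ enh-/- library and over it without either WT library (0.0528 and 0.0629), and no filter gave 0.216. None rose at that threshold, and 3 higher and 11 lower lay past an unadjusted p of 0.05 among the 52, where 3.86% and 16.9% of all tested genes did. The median was -0.16, close to that of all tested genes. All 11 interferon genes on the list were below an FPKM of 1 in every library, the highest being IFNK at 0.664, and 4 were listed at 0 throughout. Of the other ligands, named here after their values were seen, IL6 and IL11 were tested and overlapped between genotypes. LIF, a cytokine that signals through STAT3, was below the filter and did not overlap, at 1.501 and 1.64 in WT against 0.124 and 0.254.

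Of the negative regulators, USP18, which removes ISG15 from proteins and dampens the type I receptor, stood at 3.90 and 3.68 in WT and 1.72 and 1.03 in C/EBPβ enh-/- libraries (log2 fold change -1.03, SE 0.27, adjusted p = 0.106 from limma). PSMB10, the third immunoproteasome subunit, stood at 23.1 and 23.7 against 12.8 and 13.8 (adjusted p = 0.112 from limma). The RNA sensor DDX58, also called RIG-I, stood at 1.05 and 0.678 against 1.64 and 1.28 (adjusted p = 0.463 from limma). DDX58, too, passed the filter only through its C/EBPβ enh-/- level.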

How the data were processed

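RNA-seq of 2 WT and 2 C/EBPβ enh-/- libraries was used, with genotype and replicate number from the sample titles. The authors deposited FPKM, 1 value per gene and library. The submitters' processing notes name TopHat2 2.0.13, Cufflinks, edgeR and hg19, without roles. Whether strand was used and how libraries were scaled is not given in the sources used here. FPKM is relative to the rest of a library, so a few very high genes lower all others. Identifiers are those of GENCODE on GRCh37. Each file held 57815 entries, and 57768 remained without the chromosome Y pseudoautosomal copies.

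Values were taken as log2(FPKM + 1), keeping the 12491 genes whose mean FPKM reached 1, and compared with limma 3.58.1 in R 4.3.3 (mean-variance trend, two-sided, Benjamini-Hochberg over all tested genes, threshold 0.05). With 2 libraries against 2, an exact permutation test cannot give a p below 0.333. The fit was tested on simulated data. Depth was estimated from the steps between FPKM values under 0.3, of which 35.7% to 38.5% lay within 10% of whole fragments, so depths are rough and no counts were recovered. Promoters were those of RefSeq GRCh38.p14, and their printed coordinates come from a match to GRCh37. The letters GAAANGAAA were added after the OAS1 promoter was read.

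The members and lists were chosen with earlier results of these data known. All members may be named. Of the wider pathway lists, genes past the threshold are named, and per list the tested gene with the largest fold change among those without overlap. Alternatives were a higher filter (mean FPKM of 5) or none, a pseudocount of 0.1, no trend, 3 rescalings, the replicate block and leaving out each library. Tables and figures used pandas 2.3.3, numpy 2.4.6 and matplotlib 3.10.9 under Python 3.11.15.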

Additional observations from a re-analysis of the deposited data

How the results depend on the processing

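With 2 libraries per genotype and FPKM in place of counts, the number of libraries limits the precision. BST2 kept its direction in every alternative. OAS1 did where it was tested, but under a filter on the mean its direction was fixed by the filter, and only the fit with no filter was free of that. Without the filter 30754 genes were tested and limma called 0 lower and 0 higher, while 2710 and 1136 had an unadjusted p under 0.05. It called 0 members in either direction (7 and 4 unadjusted). When the mean had to reach an FPKM of 5, limma called 20 genes higher, and 0 members, since OAS1 was no longer tested (8 lower and 2 higher unadjusted). Among all tested genes, 151 were called lower and 31 higher, 83.0% lower. The lower count was 61 with the same total per library (72.6% of calls lower), 58 with the same total without the highest genes (65.2%) and 68 when centred on the median (68.7%). Leaving out 1 library gave 9 to 22 lower and 3 to 20 higher over all genes, 0 to 0 lower and 0 to 1 higher among members, the 1 being IFI6 without C/EBPβ enh-/- library 2. A genotype left with 1 library was assumed to vary like the other. The median log2 fold change over all genes moved from -0.14 to -0.0012 without the filter, 0.060 with the same total without the highest genes and 0.034 when centred. That of the members was -0.35 to 0.017 when 1 library was left out.

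The replicate number as a block gave 93 genes lower and changed no member's call. Deviations of same-numbered libraries correlated at 0.00945. With only 2 pairs this cannot tell whether same-numbered libraries were handled together, which is not stated.

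Of 41 members 28 kept their sign in all alternatives. With the same total without the highest genes and when centred, IFNAR1 was 0.18 and 0.15, IRF1 0.052 and 0.055, IFIT5 0.14 and 0.10, and IFITM1 0.096 and 0.056, and under the first IFI35 was 0.014 and TAPBP 0.017. Leaving out 1 library turned the sign of 12 members, with log2 fold changes of -0.36 to 0.31 for IFNAR1, -0.18 to 0.35 for IFNGR1, -0.24 to 0.60 for STAT2, -0.90 to 0.13 for SOCS2, -0.68 to 0.44 for IRF1, -0.59 to 0.14 for ISG15, -0.28 to 0.91 for ISG20, -0.33 to 0.19 for IFIT5, -0.88 to 0.64 for IFITM1, -0.51 to 0.036 for B2M, -1.04 to 0.11 for TAP1 and -0.52 to 0.11 for TAPBP. The cause was not tested.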
